A study of Homo sapiens with 12 samples.

Results

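A set of 7 long non-coding RNAs (lncRNAs) with a known link to p53 or to a p53-induced microRNA were followed in HCT116 cells: *MIR34AHG*, *MIR22HG*, *PVT1*, *LINC-PINT*, *NEAT1*, *MALAT1* and *TP53TG1*. The members were taken by their symbols, which matched 7 of the 60580 symbols listed in every library. HCT116 cells are an established line of human colorectal cancer with functional p53. *WT* cells were derived from single cells after transfection with a Cas9 plasmid that carried no guide RNA. The *miR-34abc-KO* cells were derived from single cells after CRISPR/Cas9 deletion of the sequences of pre-miR-34a and pre-miR-34b/c, and both genotypes were treated for 48 h with the solvent DMSO or with 5-FU, a pyrimidine analog that disturbs nucleotide synthesis and activates p53. The groups comprised 3 libraries of *WT* cells in DMSO, 3 of *miR-34abc-KO* cells in DMSO, 2 of *WT* cells in 5-FU and 3 of *miR-34abc-KO* cells in 5-FU.

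The third library labelled as *WT* cells in 5-FU (replicate 1) differed in 0 of 60580 symbols from replicate 3 of *WT* cells in DMSO and was left out, so that 11 libraries with 22831415 to 39064210 counts were compared. It is not stated which libraries came from different clones. The p-values therefore measure the spread between these libraries, which may be technical, and a property of the clones cannot be told apart from the deletion. Summed markers of colon epithelium ranged in DMSO from 4601 to 4769 CPM (counts scaled to a common library size) in *WT* and from 4387 to 4618 CPM in *miR-34abc-KO* cells, and in 5-FU from 9468 to 10209 and from 6908 to 7285 CPM. Most of this sum came from the keratin genes *KRT8* and *KRT18* (means of 2366 and 1382 CPM in *WT* cells in DMSO). Of its 7 genes, 3 in *WT* and 4 in *miR-34abc-KO* cells were called higher with 5-FU and 0 lower. *EPCAM* fell by less than 1.5-fold (log2 -0.39 and -0.48). Summed markers of other cell types were lower, at 23.4 to 28.3 and 47.5 to 51.8 CPM in DMSO and 55.8 to 66.5 and 71.8 to 72.5 CPM in 5-FU, and *COL1A1*, a collagen gene among them, was higher in *miR-34abc-KO* cells in DMSO (log2 0.93, FDR 1.94e-07). These sums thus moved with treatment and genotype, and their part in the results was not tested.

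The transcription factor p53 is stabilized by DNA damage and activates genes that arrest the cell cycle or trigger cell death. Some of its targets are lncRNAs, several of which serve as host transcripts from which a microRNA hairpin is cut in the nucleus. Others shape nuclear bodies: *NEAT1* is the scaffold of paraspeckles and *MALAT1* is an abundant RNA of nuclear speckles.

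The microRNAs carried by the host transcripts are shown with their seed, bases 2 to 8, in capitals (RefSeq, GRCh38.p14), because these short products are what the hosts are known for, while the counts report the remainder of the host. The list also holds miR-34b-5p, which none of these lncRNAs carries, because its hairpin was deleted as well.
hsa-miR-34a-5p: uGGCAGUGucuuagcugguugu
hsa-miR-34b-5p: uAGGCAGUgucauuagcugauug
hsa-miR-22-3p: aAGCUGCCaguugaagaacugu
hsa-miR-29a-3p: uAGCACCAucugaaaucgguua
hsa-miR-29b-3p: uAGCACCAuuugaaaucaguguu
The seeds of miR-34a-5p and miR-34b-5p overlap but are shifted by a base, those of miR-29a-3p and miR-29b-3p are identical, and the seed of miR-22-3p is shared with none of the other 4. In the annotation (GENCODE release 44, GRCh38), miR-34a lies in *MIR34AHG*, miR-22 in *MIR22HG*, and miR-29a and miR-29b-1 within the span of *LINC-PINT*. The rows of these hairpins, and of the hairpins hosted by *NEAT1* and *PVT1*, held 0 counts in every library (12 rows, *MIR34B* and *MIR34C* included), so that the counts measure the host RNAs alone.

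Of the sequences deleted in the *miR-34abc-KO* cells, that of pre-miR-34a lies in the last exon of *MIR34AHG* (chromosome 1, 9148011 to 9198906, minus strand), which runs from 9148011 to 9151835. Those of pre-miR-34b/c lie on chromosome 11. The annotated pre-miR-34a hairpin occupies 110 of its 3825 bases (2.88%), from 9151668 to 9151777. Since the remainder of the host can still be counted, the level of *MIR34AHG* is no check of the deletion. A match to the p53 response element consensus, in the form of a pair of half-sites with no base in between, was found 229 bases downstream of an annotated start of *MIR34AHG* (start at 9182392) and 30.4 kb upstream of the hairpin. It is shown because a p53 site in this gene is well known, with both half-sites in capitals and 5 flanking bases on either side (chr1:9182139-9182168, GRCh38, minus strand).
p53 match in MIR34AHG: tgcctGGGCTTGCCTGGGCTTGTTCcgagc
The counts below include matches with a limited number of bases between the half-sites. A match in this sense lay within 1000 bases of an annotated start in *MIR34AHG* alone among the 7 lncRNAs (2 of its 5 starts). Around the main starts of all tested genes with a position, 26 of 14135 windows of this width held one (0.184%). Every annotated start was searched for the 7 lncRNAs, but only the main start for all tested genes, so that this share is not a matched background. The scan allowed no mismatch within the half-sites and covered both strands, because the consensus is its own reverse complement. A match is a stretch of letters and not a measured binding site, and its absence near the other lncRNAs says nothing on p53.

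*MIR34AHG*, the primary transcript of miR-34a, was counted at 4.69, 4.46 and 5.36 CPM in *WT* cells in DMSO and at 22.5, 21.9 and 22.2 CPM in *miR-34abc-KO* cells in DMSO. In 5-FU the *WT* libraries gave 17 and 15.4 CPM and the *miR-34abc-KO* libraries 62.7, 65.8 and 65.3 CPM. No groups overlapped, and untreated *miR-34abc-KO* cells lay above *WT* cells in 5-FU. The log2 difference between genotypes was 2.19 (SE 0.08, FDR 9.42e-12) in DMSO and 1.99 (SE 0.08, FDR 3.32e-11) in 5-FU, where FDR is the Benjamini-Hochberg adjusted p of edgeR over 16123 tested genes. Exposure to 5-FU raised the transcript in both genotypes, by 1.73 (FDR 1.18e-10) in *WT* and 1.54 (FDR 1.38e-11) in *miR-34abc-KO* cells on the log2 scale. The 2 responses differed by -0.19 (95% interval -0.44 to 0.05, FDR 0.23), so that a difference was not detected. In these bulk libraries, a change of the level in each cell and of the share of cells that express a transcript cannot be told apart.

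*LNCTAM34A*, an antisense lncRNA at chromosome 1, 9182004 to 9196284 on the plus strand, overlaps *MIR34AHG*, and the p53 match begins 140 bases inside it. Whether reads were counted by strand is not given in the sources used here, so reads of both genes cannot be told apart where they overlap. It was counted at 0.469, 0.485 and 0.434 CPM in *WT* and 0.501, 0.937 and 0.757 CPM in *miR-34abc-KO* cells in DMSO. In 5-FU it reached 3.27 and 2.84 CPM in *WT* and 3.45, 3.53 and 2.59 CPM in *miR-34abc-KO* cells. The counts assigned to *LNCTAM34A* therefore rose with 5-FU in both genotypes (log2 2.72 and 2.12, FDR 2.68e-07 and 1.24e-06). Its genotypes overlapped in 5-FU (log2 difference 0.06, 95% interval -0.41 to 0.54, FDR 0.844). In DMSO its genotypes differed by 0.66, which did not pass (95% interval 0.02 to 1.31, FDR 0.0844).

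*MIR22HG* (chromosome 17, 1711447 to 1717174, minus strand) carries miR-22 in an exon from 1711503 to 1714014. It was counted at 2.13, 1.76 and 1.48 CPM in *WT* and at 6.31, 5.37 and 4.74 CPM in *miR-34abc-KO* cells in DMSO. Upon 5-FU the values were 6.66 and 6.38 CPM in *WT* and 15, 15.8 and 13.4 CPM in *miR-34abc-KO* cells. The *WT* libraries in DMSO were lowest and the *miR-34abc-KO* libraries in 5-FU highest, and the groups between them lay next to each other, at 4.74 to 6.31 and 6.38 to 6.66 CPM. *MIR22HG* was higher in *miR-34abc-KO* cells by 1.61 in DMSO (SE 0.16, FDR 4e-07) and by 1.18 in 5-FU (SE 0.13, FDR 2.92e-06) on the log2 scale. It rose with 5-FU by 1.88 in *WT* (FDR 4.8e-08) and by 1.44 in *miR-34abc-KO* cells (FDR 4.65e-08). The difference of these responses, -0.44, did not pass (95% interval -0.88 to -0.00, FDR 0.127).

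*PVT1*, a lncRNA next to *MYC* that is known both as a p53-induced transcript and as a partner of MYC, lies on chromosome 8 (127794526 to 128187101, plus strand). Its values in DMSO were 40.3, 41.8 and 38.8 CPM in *WT* and 28.9, 35 and 36.5 CPM in *miR-34abc-KO* cells. In 5-FU they were 88.9 and 84.6 CPM in *WT* and 48.3, 50.8 and 46.1 CPM in *miR-34abc-KO* cells. The genotypes did not overlap under either treatment, but lay further apart in 5-FU. In *WT* cells *PVT1* rose by 1.11 on the log2 scale (SE 0.08, FDR 7.14e-09). The response of *miR-34abc-KO* cells was 0.53 (SE 0.08, FDR 1.81e-05), under the 1.5-fold that a call required. The log2 difference between genotypes was -0.27 in DMSO (FDR 0.0103, under 1.5-fold) and -0.84 in 5-FU (FDR 4.3e-07). The responses differed by -0.58 (95% interval -0.82 to -0.34, FDR 0.00149), which is 1.49-fold and thus just under the fold required.

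*LINC-PINT*, a p53-induced lncRNA that associates with the Polycomb repressive complex, lies on chromosome 7 (130791264 to 131110176, minus strand). It was counted at 6.03, 6.09 and 5.94 CPM in *WT* and at 3.01, 3.36 and 3.55 CPM in *miR-34abc-KO* cells in DMSO. In 5-FU the *WT* libraries gave 4.46 and 5.96 CPM and the *miR-34abc-KO* libraries 2.77, 3.09 and 2.8 CPM. Each *miR-34abc-KO* library lay below each *WT* library, and the treatments overlapped within both genotypes. The transcript was lower in *miR-34abc-KO* cells by a log2 difference of -0.86 in DMSO (SE 0.14, FDR 8.3e-05) and of -0.84 in 5-FU (SE 0.15, FDR 0.000253). The call in DMSO was lost with an RUVg factor (-0.45, FDR 0.508), and both were lost when the minimum fold was set inside the test. The 5-FU responses did not pass the test in *WT* (-0.22, 95% interval -0.52 to 0.09, FDR 0.202) or in *miR-34abc-KO* cells (-0.20, 95% interval -0.51 to 0.11, FDR 0.259). *LINC-PINT* thus stood opposite to *MIR34AHG* and *MIR22HG* between genotypes.

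**Figure D1:**
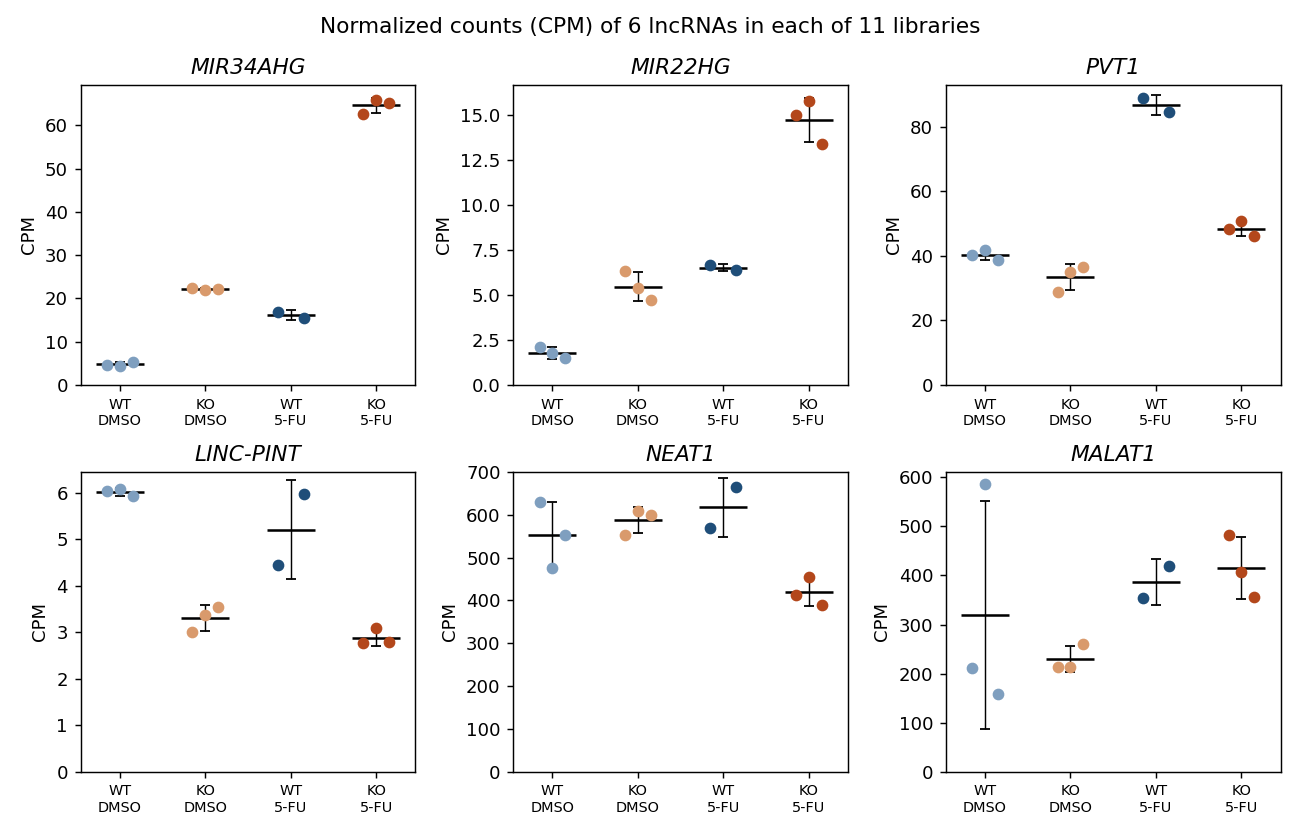
Normalized counts (CPM, vertical axes, linear, from 0) of 6 lncRNAs in each library of the 4 groups, with points for libraries, horizontal lines for group means and error bars for 1 SD. *MIR34AHG* runs from 4.46 CPM in a *WT* library in DMSO to 65.8 CPM in a *miR-34abc-KO* library in 5-FU, and 1 *WT* library in DMSO stands at 586 CPM for *MALAT1*.

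*NEAT1* (chromosome 11, 65422774 to 65445540, plus strand) was counted at 629, 475 and 554 CPM in *WT* and at 552, 608 and 599 CPM in *miR-34abc-KO* cells in DMSO. The 5-FU values were 568 and 665 CPM in *WT* and 413, 455 and 390 CPM in *miR-34abc-KO* cells. The *miR-34abc-KO* libraries in 5-FU were thus the lowest of all, and the other groups overlapped. *NEAT1* passed the FDR but not the fold for the difference between genotypes in 5-FU (-0.56, SE 0.10, FDR 0.000187) and for the response of *miR-34abc-KO* cells (-0.48, SE 0.09, FDR 0.000169). Neither the difference in DMSO (0.09, 95% interval -0.10 to 0.27, FDR 0.453) nor the response of *WT* cells (0.16, 95% interval -0.05 to 0.36, FDR 0.174) passed. The responses of the genotypes differed by -0.64 (95% interval -0.92 to -0.36, FDR 0.00211), the only difference of responses that was called among the 6 lncRNAs tested. It fell under 1.5-fold without replicate 2 of *WT* cells in DMSO (-0.54) and without replicate 3 of *WT* cells in 5-FU (-0.53), and with TMM factors (-0.58) or DESeq2 (-0.56).

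*MALAT1* lies 52.1 kb from *NEAT1* on the same strand (chromosome 11, 65497640 to 65508073). It was counted at 212, 586 and 159 CPM in *WT* and at 214, 213 and 261 CPM in *miR-34abc-KO* cells in DMSO. In 5-FU the values were 354 and 420 CPM in *WT* and 482, 408 and 356 CPM in *miR-34abc-KO* cells. Replicate 2 of *WT* cells in DMSO was higher than any other library. *MALAT1* was 1 of 7 genes, of 10364 with a mean of at least 10 CPM, that lay at least 2-fold above the other *WT* libraries in DMSO there, together with *BCYRN1*, a small RNA made by RNA polymerase III, *RPL23AP42*, *RGPD6*, FP236383.4, FP236383.5 and FP671120.7. The latter 3 also lay at least 2-fold above the other libraries in replicate 1 of *miR-34abc-KO* cells in 5-FU, with *RN7SL1* and *RN7SL2*, RNAs of the signal recognition particle, and this library had the highest *MALAT1* value of its group (482 CPM). Summed RNAs without a poly(A) tail varied from 7.22 to 55.6 CPM in the *WT* and from 24.9 to 111 CPM in the *miR-34abc-KO* libraries in DMSO, and from 37.7 to 120 and from 62.9 to 292 CPM in 5-FU. Their part in the result was not tested.

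With all libraries, *MALAT1* was called in 1 of 5 comparisons, the response of *miR-34abc-KO* cells, in which it rose with 5-FU by 0.86 on the log2 scale (SE 0.31, FDR 0.0259). In *WT* cells its response was 0.28 (95% interval -0.45 to 1.01, FDR 0.5). Without replicate 2 of *WT* cells in DMSO, the *WT* response became 1.06 (SE 0.14, FDR 1.8e-05), and the *miR-34abc-KO* response stayed at 0.86 (FDR 1.55e-05). The difference of responses was 0.57 (FDR 0.386) with this library and -0.20 (FDR 0.45) without it, and passed in neither case. It was called when no filter on low counts was used (0.60, FDR 1.66e-10). The difference between genotypes in DMSO, -0.47 (95% interval -1.13 to 0.19, FDR 0.23), changed to 0.31 (FDR 0.0768) without replicate 2 and to -0.80 (FDR 0.0259) without replicate 3 of *WT* cells. The call in *miR-34abc-KO* cells was lost without replicate 1 (0.81, FDR 0.0712) or 2 (0.81, FDR 0.072) of these cells in DMSO, without their replicate 1 in 5-FU (0.73, FDR 0.0827) and with DESeq2 (0.91, FDR 0.0892).

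*TP53TG1* (chromosome 7, 87322943 to 87345560, minus strand), named for its induction by p53, was listed at 0 counts in all 11 libraries and was not tested. *CROT*, the adjacent gene that encodes a peroxisomal carnitine transferase, was listed at 0 counts in the 6 DMSO libraries, at 11 and 17 counts in *WT* and at 7 to 11 counts in *miR-34abc-KO* cells in 5-FU. No fold is given for either gene.

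**Figure D2:**
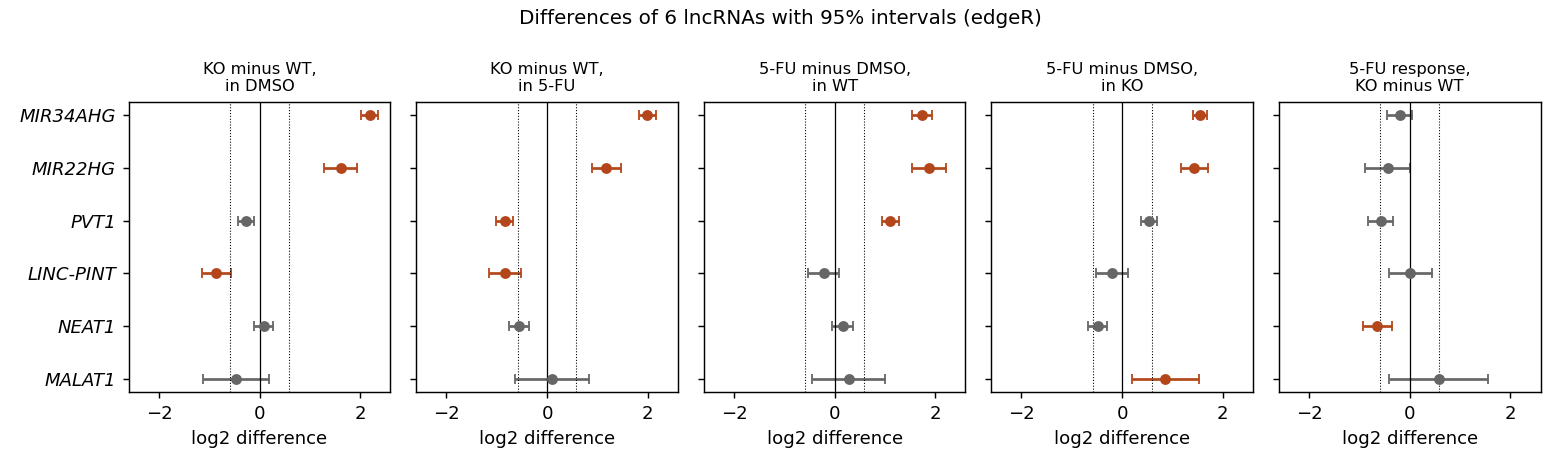
Log2 differences (horizontal axes) of 6 lncRNAs with 95% intervals from edgeR, for genotypes within a treatment, treatments within a genotype, and the difference between the 5-FU responses. Orange marks differences with an FDR under 0.05 and a fold above 1.5 (dotted lines), among them *MIR34AHG* at 2.19 and *LINC-PINT* at -0.86 in DMSO.

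Levels of different lncRNAs can be compared only per length, and the length to use is uncertain, because the annotation gives *PVT1* 190 and *LINC-PINT* 69 transcripts. Per kb of all annotated exons, the means in *WT* cells in DMSO were 30.6 CPM for *MALAT1*, 24.3 for *NEAT1*, 1.58 for *PVT1*, 0.576 for *MIR22HG*, 0.555 for *MIR34AHG* and 0.221 for *LINC-PINT*. Per kb of the canonical transcript they were 30.6, 24.3, 16.5, 0.623, 1.15 and 3.91 CPM. *MALAT1* and *NEAT1* did not differ beyond the spread of their libraries (15.2 to 56.2 and 20.9 to 27.6 CPM per kb of exons). In *miR-34abc-KO* cells in 5-FU, the levels per kb of exons were 39.8 CPM for *MALAT1*, 18.4 for *NEAT1*, 7.42 for *MIR34AHG*, 4.74 for *MIR22HG*, 1.9 for *PVT1* and 0.106 for *LINC-PINT*. Per kb of the canonical transcript, *PVT1* was at 19.8 and *MIR34AHG* at 15.3 CPM, so that their order turned with the length used. In *WT* cells in DMSO, *LINC-PINT* was lowest per kb of exons but above *MIR34AHG* and *MIR22HG* per kb of the canonical transcript. In *miR-34abc-KO* cells in 5-FU it was lowest by either length (0.106 and 1.88 CPM). *MIR34AHG* lay above *MIR22HG* in this group by either length, with no overlap of libraries.

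Over the 6 lncRNAs tested, 2 were called higher and 1 lower in *miR-34abc-KO* cells in DMSO, and 2 higher and 2 lower in 5-FU. Upon 5-FU, 3 were called higher in each genotype. These were *MIR34AHG* and *MIR22HG* in both, *PVT1* in *WT* and *MALAT1* in *miR-34abc-KO* cells. Of all genes tested, 9.1% were called higher and 4.97% lower in *miR-34abc-KO* cells in DMSO, and 7.58% and 10.6% in 5-FU. With 5-FU, 18.5% were called higher and 9.38% lower in *WT*, and 13.3% and 12% in *miR-34abc-KO* cells. The responses of 10.1% of genes were called different between genotypes, and those of 26.1% differed at an FDR under 0.05 with no minimum fold, as did those of 2 of the 6 lncRNAs (*NEAT1* and *PVT1*). The balance of calls over all genes depended on scaling: with library totals alone, 1547 genes instead of 1222 were higher and 1367 instead of 1702 lower in *miR-34abc-KO* cells in 5-FU, and 2508 instead of 2137 rose and 1453 instead of 1932 fell in their response to 5-FU. For the difference of responses, TMM gave 676 higher and 844 lower, library totals 661 and 855, and DESeq2 703 and 679, instead of 551 and 1073. With an RUVg factor, none of the calls of the 6 lncRNAs upon 5-FU was left. Over all genes, 3 were then called higher in *WT* and 1 in *miR-34abc-KO* cells. The methods of the study name RUVg but not its control genes. The factor used here came from control genes chosen from these same data, and 98.2% of its variance lay between the treatments. It does not stand for the step of the study, which reported many genes changed by 5-FU in both genotypes. The median log2 fold change of the 6 lncRNAs was 0.69 in each 5-FU comparison, beside 0.03 and -0.06 for all genes, and -0.09 and -0.23 between genotypes in DMSO and 5-FU, beside 0.03 and -0.05.

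Known targets of the pathway served as a reference. Among 20 direct p53 targets, 19 rose with 5-FU in each genotype (median log2 2.22 and 2.0), and 10 were higher in *miR-34abc-KO* cells in DMSO (median 0.55), with 4 higher and 1 lower in 5-FU (median 0.26). *CDKN1A*, which encodes the cell cycle inhibitor p21, was higher in *miR-34abc-KO* cells by 1.49 in DMSO (FDR 9.37e-13) and passed the FDR but not the fold in 5-FU (0.26, FDR 0.000618). *MDM2*, the ubiquitin ligase that degrades p53, differed by 0.45 in DMSO (FDR 2.54e-05) and by -0.46 in 5-FU (FDR 4.23e-05), both under 1.5-fold. *GDF15*, which encodes a stress-induced cytokine, was higher in *miR-34abc-KO* cells under either treatment (1.55 and 1.12, FDR 2.61e-10 and 4.29e-08), as were the death receptor gene *FAS* (0.65 and 0.80, FDR 1.94e-06 and 1.22e-07) and *SESN1* (0.59 and 0.61, FDR 3.26e-06 and 1.76e-06). A higher level in *miR-34abc-KO* cells with and without 5-FU was therefore shared by *MIR34AHG*, *MIR22HG* and some direct p53 targets.

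Of 11 other p53-linked lncRNAs, 9 were listed and 6 tested, and 3 rose with 5-FU in each genotype. Of all genes tested, 18.5% rose in *WT* and 13.3% in *miR-34abc-KO* cells. The 3 were *H19*, *PURPL* and *DINOL*. *PURPL* and *DINOL* reached the 20 counts required for testing only in 5-FU libraries, so that their rise was largely fixed by this filter. *H19*, an imprinted lncRNA that hosts miR-675, had means of 4.29 and 4.47 CPM in *WT* and *miR-34abc-KO* cells in DMSO, and of 27 and 69.2 CPM in 5-FU. Its response was larger in *miR-34abc-KO* cells by 1.30 on the log2 scale (SE 0.16, FDR 2.95e-05), whereas that of *PVT1* was smaller and *NEAT1* had values of 0.16 in *WT* and -0.48 in *miR-34abc-KO* cells. *PURPL*, a p53-induced lncRNA, was counted at 0 to 2 reads per *WT* library in DMSO and at means of 2.21 and 1.92 CPM in *WT* and *miR-34abc-KO* cells in 5-FU. *DINOL*, which is transcribed next to *CDKN1A*, was listed at 0 in *WT* and at 1 read per library in *miR-34abc-KO* cells in DMSO. In 5-FU it reached means of 0.447 and 1.48 CPM (14 to 16 and 33 to 41 reads per library). The log2 difference between genotypes in 5-FU was 1.73 (FDR 0.00108). Only the *miR-34abc-KO* libraries in 5-FU reached the 20 counts required for testing. *DINOL* was thus tested only because it was high in that group, which the FDR does not take into account. *EPB41L4A-AS1* was lower in *miR-34abc-KO* cells in 5-FU (-0.62, FDR 8.25e-05). *TUG1* and *GAS5* were called in none of the 4 comparisons.

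Among 63 other transcripts named as microRNA hosts, 18 were at 0 in all libraries and 20 were tested. With 5-FU 8 rose and 4 fell in *WT*, and 3 rose and 4 fell in *miR-34abc-KO* cells, and 4 were higher in *miR-34abc-KO* cells in DMSO. Between genotypes in 5-FU 1 was higher and 3 were lower, and the difference of responses, *miR-34abc-KO* minus *WT*, was called positive for 1 and negative for 3. The hosts lower in 5-FU were *MIR210HG* (-0.77, FDR 0.0137), *MIRLET7BHG* (-0.71, FDR 0.0014) and *MIR503HG* (-1.34, FDR 0.0254). *MIR31HG*, the host of miR-31 and the one that was higher in 5-FU, was higher in *miR-34abc-KO* cells under both treatments (0.90, FDR 0.00492, and 1.20, FDR 0.00018) and rose with 5-FU in both genotypes (1.30 and 1.61, FDR 0.000198 and 2.57e-06). This is the pattern of calls seen for *MIR34AHG* and *MIR22HG*. *MIR1915HG* rose by 2.33 in *WT* (FDR 3.41e-11) and by 0.60 in *miR-34abc-KO* cells (FDR 5.54e-05), and the responses differed by -1.73 (FDR 8.2e-07). *MIR100HG*, the host of miR-100 and let-7a-2, fell in both genotypes by 1.04 and 1.33 on the log2 scale (FDR 2.85e-09 and 3.8e-11), and *MIR17HG*, the host of the miR-17-92 cluster, fell by 1.36 and 1.78 (FDR 0.000512 and 2.49e-05).

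**Figure D3:**
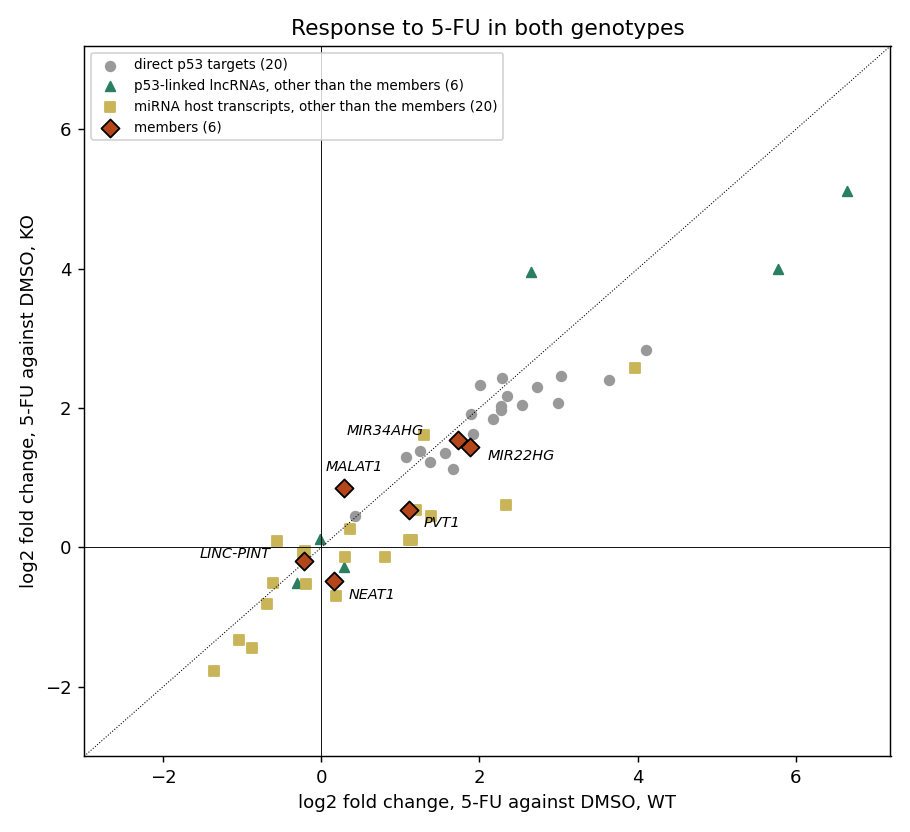
Log2 fold change upon 5-FU in *WT* (horizontal axis) and in *miR-34abc-KO* cells (vertical axis) of the 6 lncRNAs tested and of tested direct p53 targets, other p53-linked lncRNAs and other microRNA hosts, with a dotted line where both are equal. *MIR34AHG* lies at 1.73 and 1.54 and *PVT1* at 1.11 and 0.53. Fitted values of genes with hardly any DMSO counts, such as *PURPL* and *DINOL*, depend on the prior count.

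Genes for the protein partners of *NEAT1* and *MALAT1* were read beside them. Among 12 paraspeckle proteins, whose median log2 difference was -0.12 between genotypes under both treatments, 1 was lower in *miR-34abc-KO* cells in 5-FU, while 1 rose and 4 fell with 5-FU in *WT* and 1 rose and 1 fell in *miR-34abc-KO* cells. The 10 nuclear speckle proteins had median differences of 0.01 in DMSO and 0.15 in 5-FU between genotypes, and 4 of them fell with 5-FU in each genotype. These were the splicing factors *SRSF1*, *SRSF2*, *SRSF3* and *SRSF7*.

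To see whether the differences between genotypes were shared with neighboring genes, all tested genes within 1 Mb were listed. Around *MIR34AHG* the median log2 difference of 18 neighbors was -0.12 in DMSO and 0.06 in 5-FU, and 1 and 3 of them were called lower. The nearest genes on either side, *GPR157* and *H6PD*, differed by -0.10 and -0.14 in DMSO (FDR 0.279 and 0.141). Around *MIR22HG* the median of 37 neighbors was -0.01 in DMSO and -0.09 in 5-FU. The nearest genes on either side, *TLCD2* and *SERPINF2*, were higher in *miR-34abc-KO* cells in DMSO (0.39, FDR 0.015, under 1.5-fold, and 0.71, FDR 0.000163). In 5-FU they differed by -0.31 and -0.06 (FDR 0.0706 and 0.746). *WDR81*, which overlaps *MIR22HG* on the other strand, differed by 0.47 in DMSO (FDR 0.000224, under 1.5-fold) and by 0.01 in 5-FU (FDR 0.947). It was called upon 5-FU in *WT* cells (1.02, FDR 5.09e-08).

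The 13 neighbors of *LINC-PINT* had medians of -0.12 in DMSO and -0.10 in 5-FU. *MKLN1*, which overlaps it on the other strand and was counted at a mean of 79.3 CPM, differed by 0.09 and 0.12 (FDR 0.27 and 0.205), and *LINC00513*, also on the other strand, was lower in 5-FU (-1.31, FDR 0.00101) and not called in DMSO (-0.10, FDR 0.791). By contrast, all 5 tested neighbors of *PVT1* had negative differences under both treatments, with medians of -0.74 and -0.98, and 3 of them were called lower in each. *MYC*, which lies 51.6 kb upstream and encodes a growth-promoting transcription factor, had means of 459 and 274 CPM in *WT* and *miR-34abc-KO* cells in DMSO and of 443 and 225 CPM in 5-FU. Its differences between genotypes were -0.74 (FDR 2.2e-08) and -0.98 (FDR 2.91e-09). The others called were *CASC19* (-0.92 and -1.10, FDR 6.37e-08 and 3.1e-08) and *CASC8* (-1.16 and -2.06, FDR 0.000768 and 1.58e-06), lncRNAs upstream of *MYC*. With 5-FU, *MYC* did not follow *PVT1*: its response was -0.05 in *WT* (FDR 0.505) and -0.29 in *miR-34abc-KO* cells (FDR 0.000261, under 1.5-fold). Other neighbors did rise: of the 5, 3 were called higher with 5-FU in *WT* and 2 in *miR-34abc-KO* cells, and 0 lower. The medians of the 5 were 1.05 and 0.48, beside 1.11 and 0.53 for *PVT1*. The 2 neighbors called in both genotypes were scarce, at means of 0.75 and 0.538 CPM. Of all genes tested, 18.5% and 13.3% were called higher.

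Next to *NEAT1*, at a distance of 9.25 kb, *FRMD8* rose with 5-FU by 0.88 in *WT* (FDR 7.03e-08) and by 1.48 in *miR-34abc-KO* cells (FDR 3.68e-11), and its responses differed by 0.60 (FDR 0.000746), with a sign opposite to that of *NEAT1*. The 75 tested neighbors of *NEAT1* had medians of 0.05 and 0.01 between genotypes.

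Across the 11 libraries, the genes whose log2 CPM was most like that of each lncRNA were listed by Pearson's r among 14000 genes with a mean of at least 1 CPM. The libraries fall into 4 groups, so that a high r mainly restates a common order of groups, and no p is given. *MSX2* (0.999), *GPC1* (0.996) and *RXRA* (0.992) were most like *MIR34AHG*, *PI4KAP2* (0.994), *TMEM131* (0.991) and *PLXNA2* (0.99) most like *MIR22HG*, and *ZBED2* (0.987), *UNC13D* (0.984) and *GAS8* (0.981) most like *PVT1*. For *LINC-PINT* they were *NAA20* (0.989), *TRIT1* (0.987) and *DCAF13* (0.987), for *NEAT1* *LINC00173* (0.918), *MGST3* (0.909) and *EXOC6B* (0.909), and for *MALAT1* *MRPL27* (0.935), *DDTL* (0.849) and *LYSMD1* (0.845). Among the lncRNAs themselves, *MIR34AHG* and *MIR22HG* were the most alike (0.97), and *MIR34AHG* and *LINC-PINT* were the most opposed (-0.902).

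The canonical transcripts were searched for CACTGCC, the match to the seed of miR-34a-5p, on the transcribed strand. *NEAT1* held 5 such matches in 22743 bases, and *MIR34AHG* and *MIR22HG* held 1 each in 4211 and 2876 bases. No match was found in the canonical transcripts of *MALAT1*, *LINC-PINT*, *TP53TG1* and *PVT1*, at whose lengths 63.0%, 21.1%, 33.9% and 29.9% of tested transcripts held one. At similar lengths, 78.9% of 38 tested transcripts held a match in the case of *NEAT1*, 39.9% of 3356 in that of *MIR34AHG* and 32.8% of 3304 in that of *MIR22HG*.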

How the data were processed

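The authors aligned the reads to GRCh38 (hg38) with CLC Genomics Workbench and deposited raw counts per gene symbol, with no filter and no normalization applied in the files. The Ensembl release and the use of strand are not given in the sources used here. Groups were taken from the sample titles. The 16123 genes that reached 20 counts in some library were fitted with edgeR 4.0.16 in R 4.3.3 (upper-quartile factors of 0.955 to 1.05, glmQLFit, glmQLFTest, two-sided), with 1 mean for each group and all 11 libraries in the same model. A call required an FDR under 0.05 and a fold above 1.5. The biological coefficient of variation was 6.72%. CPM (counts scaled by these factors and the totals) were computed from the deposited counts with edgeR. The fit was tested on simulated data.

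Members and lists were chosen with earlier results of these data known. Named were the members, list genes called in a comparison, the nearest and overlapping tested neighbors, the 3 most similar genes, and *CDKN1A*, *MDM2* and *MYC*. Some genes that this rule names are not reported here. *LNCTAM34A* is named as an overlapping gene, and *CROT*, the genes high in single libraries, *EPCAM*, *COL1A1*, *TUG1*, *GAS5*, *CASC8* and *CASC19* were named after their values were seen. Of the tested genes, 14135 had 1 position in GENCODE release 44. Alternatives covered scaling (TMM, library totals), the count filter, the fold limit, DESeq2 1.42.0, an RUVg factor, a replicate block, the copied library and each library left out.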

Additional observations from a re-analysis of the deposited data

Results flagged for a closer look

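In 2 of the 6 lncRNAs tested, the response to 5-FU differed between the genotypes with an FDR under 0.05 in a test of the difference itself (edgeR). Over all genes, the share that met this FDR was 26.1%. The response of *PVT1* was smaller in *miR-34abc-KO* cells by a log2 difference of -0.58 (FDR 0.00149), and that of *NEAT1* differed by -0.64 (FDR 0.00211). The difference of *PVT1* passed 1.5-fold without replicate 2 of *WT* cells in DMSO (-0.60), replicate 1 of *miR-34abc-KO* cells in DMSO (-0.67), replicate 3 of *WT* cells in 5-FU (-0.62) or replicate 2 of *miR-34abc-KO* cells in 5-FU (-0.61).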

How the results depend on the processing

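Main calls among the 6 lncRNAs were 3 and 4 between genotypes in DMSO and 5-FU, 3 and 3 upon 5-FU in *WT* and *miR-34abc-KO* cells, and 1 for the difference of responses. Leaving out 1 library at a time gave 3 to 4, 4 to 5, 3 to 4, 2 to 4 and 1 to 2 calls. For the difference of responses, 0 were called with TMM factors, DESeq2, the RUVg factor, the copied library kept and the minimum fold inside the test, and 2 with 20 counts required in every library, with no filter on low counts and with no minimum fold. With no minimum fold, 5 were called upon 5-FU in *miR-34abc-KO* cells. With the RUVg factor 0 were called upon 5-FU in either genotype, and *PVT1* reversed to -0.51 in *WT* and -0.90 in *miR-34abc-KO* cells. That factor, from 11123 control genes chosen from these data and not by the study, held 98.2% of its variance between treatments. With the copied library kept as *WT* in 5-FU, 0 were called upon 5-FU in *WT* cells, but so were 0 of all 16123 genes. This setting therefore says nothing on the lncRNAs in particular. For the difference of responses, 185 genes were then called higher and 243 lower, instead of 551 and 1073.

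Replicate numbers paired no samples (same-number correlations of deviations -0.09 to 0.08, other numbers -0.15 to 0.15). The replicate block gave 3, 4, 3, 3 and 1 calls, as did a block by the numbers of the column headers, chosen after seeing the data because they differ from the titles in *WT* cells in 5-FU.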
